A study of Homo sapiens with 6 samples.

Results

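The secreted and membrane-bound metalloproteases of the ADAMTS, MMP and ADAM families, together with the inhibitors TIMP1 to TIMP4 and RECK, were examined in RNA from HCT-116, an established human colon carcinoma cell line. They comprised 49 of the 60546 gene identifiers in the table: 19 ADAMTS genes, 15 MMP genes, 10 ADAM genes and 5 inhibitors, each taken by its symbol. By the labels and the study's methods, all cells carried the viral vector PMSCV, either with the GOLPH3 sequence or empty, after infection and puromycin selection, and were grown in DMEM with 10% fetal bovine serum. Each group had 3 libraries, which the study describes as different generations of the lines. Their titles carry the marks P8, P12 and P13 for GOLPH3 libraries 1, 2 and 3, and P12, P11 and P13 for Vector libraries 1, 2 and 3. The labels do not say whether the lines were single clones, nor what the P number stands for.

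These enzymes share a zinc-dependent catalytic site. MMPs cut collagens, gelatins and other matrix proteins outside the cell, and the membrane-type MMPs do so while anchored at the cell surface. ADAMs are membrane proteins, and the active ones release the outer parts of growth factors and receptors from the cell surface. ADAMTS enzymes are secreted, carry thrombospondin repeats, and cut proteoglycans such as aggrecan and versican or trim procollagens. The TIMPs block these enzymes in the extracellular space, and RECK is a membrane-anchored inhibitor of MMPs. In tumors the families are studied for their part in matrix remodeling and invasion.

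The deposited values were read counts divided by a size factor for each library and are called normalized reads. Depth was 15708846 to 21900764 reads per library, and mitochondrial genes took 4.41% to 9.97% of them. For a gene at 0 the depth allows at most 3 reads, equal to 2.47 (GOLPH3 library 2) up to 3.29 (Vector library 2) normalized reads, from counting error alone. The GOLPH3 transcript itself was at 1272 to 1630 normalized reads in the GOLPH3-labelled libraries and at 1472 to 1968 in the Vector-labelled libraries (log2 fold change -0.31, adjusted p = 0.609, limma; exact two-sided permutation p = 0.2, with 0.1 the smallest p possible). It was not detectably higher where the label says GOLPH3, so the groups are called GOLPH3-labelled and Vector-labelled. The study reports GOLPH3 overexpression in its HCT-116 line from western blots, which measure protein and not RNA. Genes known for another cell line, given with the markers at the end, were read mainly in the Vector-labelled libraries, and the identity of the lines was not tested. The colon epithelial markers EPCAM, CDH1, KRT8, KRT18, KRT19 and CDX2 were read in all 6 libraries, while KRT20 was listed at 0 in each and CDX1 had 1 read in all.

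RefSeq promoter windows of 300 bases (GRCh38.p14) were matched for 30 of the 49 genes, and for 7 of the 12 whose expression differed between the groups as described below. The windows of ADAMTS3 and ADAM23 are shown because these genes were among the most strongly lower in the GOLPH3-labelled libraries, and those of ADAMTS14 and MMP14 because they were the 2 members called higher there by limma. Each is written 5′ to 3′ along the gene's strand, and capitals mark CG dinucleotides, the sites at which DNA can be methylated.
ADAMTS3: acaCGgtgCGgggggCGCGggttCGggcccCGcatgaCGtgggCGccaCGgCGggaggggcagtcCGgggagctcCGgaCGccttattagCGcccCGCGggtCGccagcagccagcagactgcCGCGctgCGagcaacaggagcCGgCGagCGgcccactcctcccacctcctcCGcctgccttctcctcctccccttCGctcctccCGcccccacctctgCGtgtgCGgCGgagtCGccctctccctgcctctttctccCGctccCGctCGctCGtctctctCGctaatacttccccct
ADAM23: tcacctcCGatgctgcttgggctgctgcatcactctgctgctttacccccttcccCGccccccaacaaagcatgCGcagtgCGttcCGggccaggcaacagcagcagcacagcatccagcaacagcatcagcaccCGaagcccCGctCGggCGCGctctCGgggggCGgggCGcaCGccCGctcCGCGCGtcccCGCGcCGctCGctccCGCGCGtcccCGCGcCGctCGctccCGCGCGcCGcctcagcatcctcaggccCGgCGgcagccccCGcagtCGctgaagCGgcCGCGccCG
ADAMTS14: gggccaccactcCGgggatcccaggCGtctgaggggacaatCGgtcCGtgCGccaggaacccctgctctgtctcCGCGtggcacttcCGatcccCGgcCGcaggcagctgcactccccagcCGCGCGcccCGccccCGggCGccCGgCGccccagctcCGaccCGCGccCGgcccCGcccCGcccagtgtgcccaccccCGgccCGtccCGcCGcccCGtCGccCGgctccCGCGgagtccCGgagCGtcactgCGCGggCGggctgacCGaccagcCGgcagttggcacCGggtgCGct
MMP14: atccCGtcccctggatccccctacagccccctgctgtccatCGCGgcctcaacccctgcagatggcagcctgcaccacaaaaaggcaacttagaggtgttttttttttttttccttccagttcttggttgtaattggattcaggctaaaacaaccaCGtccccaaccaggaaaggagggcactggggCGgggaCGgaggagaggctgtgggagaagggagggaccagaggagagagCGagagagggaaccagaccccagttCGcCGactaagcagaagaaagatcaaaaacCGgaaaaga
The ADAMTS3 window lies at chr4:72569172-72569471 on the minus strand, and the other windows lie on the plus strand at chr2:206443282-206443581 (ADAM23), chr10:70672256-70672555 (ADAMTS14) and chr14:22836335-22836634 (MMP14). They held 35, 41, 42 and 10 CG dinucleotides in that order of genes, where the median of 35116 promoters was 14. The remaining matched windows held 24 for ADAMTS12, 25 for ADAMTS19 and 31 for TIMP3. A CG-rich window was thus present in members that were lower and in 1 of the 2 that were higher. The GC box GGGCGG, searched on both strands, was found in all 7 and in 45.0% of all promoters. The AP-1 motif TGANTCA was found only in the ADAMTS12 window among the 7, against 7.71% of all promoters. No match was found for TATAAA, also searched on both strands, which 11.5% of all promoters hold.

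Whether the proteases and inhibitors differed between cells labelled GOLPH3 and cells labelled Vector was tested with limma on log2(normalized reads + 1), which understates the change of low genes. Of the 49 members, 46 reached 1 normalized read in 3 or more libraries and were tested, and 12 were called at an adjusted p under 0.05, of which 2 were higher and 10 lower in the GOLPH3-labelled libraries. Over all 26536 genes tested, 5.07% were called, 0.953% higher and 4.12% lower. Of the tested members, 5 passed the filter with no GOLPH3-labelled library at 1 normalized read, and another 11 with only 1 or 2 of them, so that many of the lower calls are genes read almost only in the Vector-labelled libraries. Such genes had to differ to be tested at all. When the filter required a value of at least 1 in every library, 28 members were left and only TIMP3 was called. Of all genes, 123 were called higher and 282 lower with this filter. The count of lower calls went from 10 to 3 without Vector library 1 or 3 and to 6 without Vector library 2. Lower calls among all genes also fell, from 1093 to 366 without Vector library 1, 730 without 2 and 346 without 3. In these fits ADAMTS3, ADAMTS5, ADAMTS9, ADAMTS19 and MMP16 no longer met the filter. Without Vector library 1 or 3, ADAMTS12 and TIMP3 were still fitted and lost the call. At an unadjusted p under 0.05 with a log2 change over 1, 6 members were higher and 14 lower, against 5.93% and 8.30% of all genes tested. edgeR on the recovered reads called 10 members, against 6.58% of the genes it tested, and DESeq2 called 15, against 5.48%. With the number after P as a block, 8 members were called higher and 17 lower, against 2636 higher and 3446 lower of all genes. This fit rests on the pairs marked P12 and P13 and has few degrees of freedom, so it gives no firm support to single genes. With the limma filter lowered to 2 libraries, the count of lower members was 7 without Vector library 1, 11 without 2 and 8 without 3. The same fits called 738, 1123 and 634 of all genes lower.

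**Figure D1:**
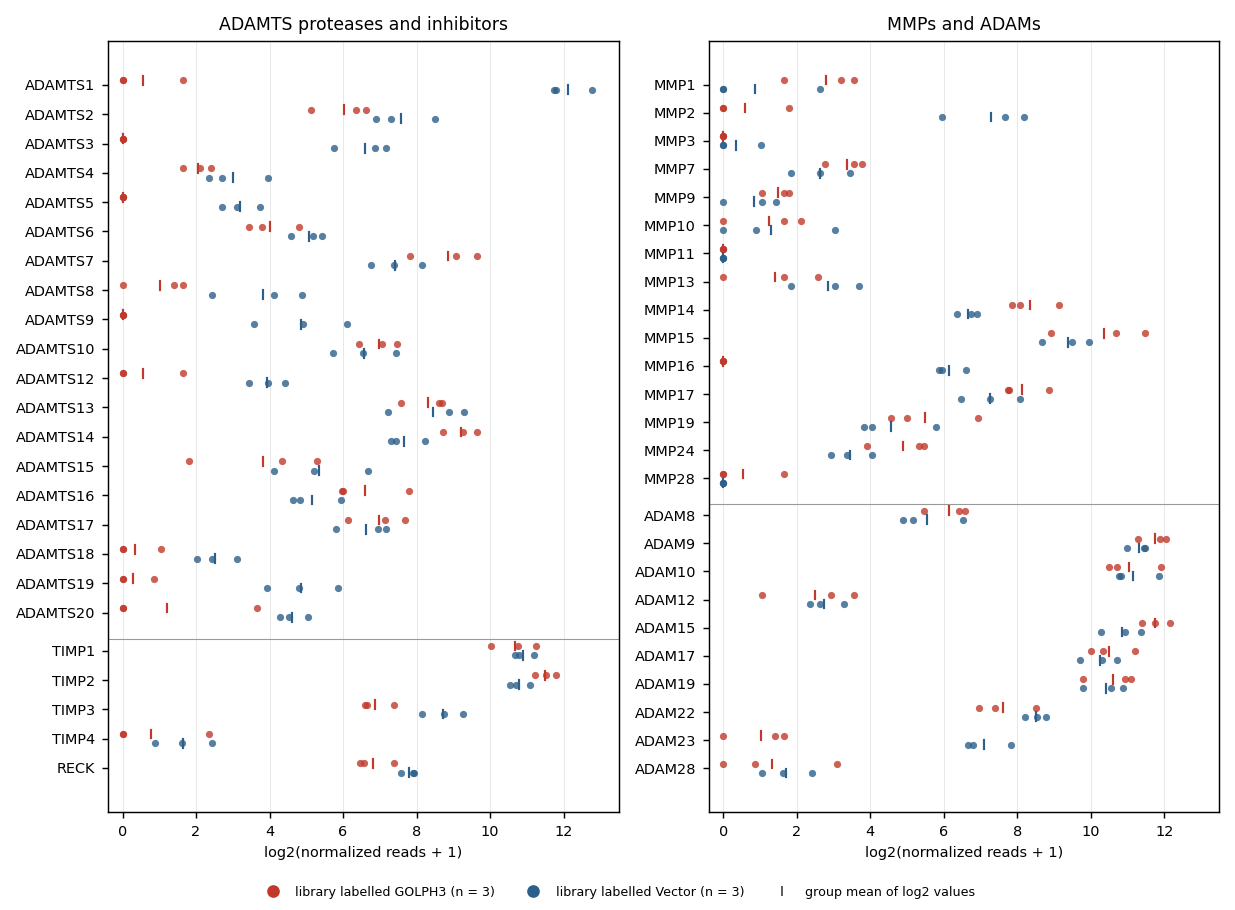
Level of each of the 49 genes as log2(normalized reads + 1) on the horizontal axis, with 1 point per library (red GOLPH3-labelled, blue Vector-labelled, n = 3 each) and a vertical tick at each group mean of the log2 values. ADAMTS1 has the widest separation, with 3433 to 6977 normalized reads in the Vector-labelled libraries and at most 2.15 in the GOLPH3-labelled ones, while the ADAM genes other than ADAM23 lie close together.

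The ADAMTS family had the most calls, with 1 of 19 higher and 6 lower (36.8%). The median log2 fold change of its 19 members was -1.54, beside 0.02 over all genes tested. It was 0.79 over 12 MMPs, 0.04 over 10 ADAMs and -0.86 over 5 inhibitors. The ADAMTS value was -1.53 with the genes without a read in the GOLPH3-labelled libraries set at the bound that 3 reads allow. The ADAMTS median depended on the genes not read in every library. It was 0.10 when only genes read in every library were kept, and ranged from -2.27 without GOLPH3 library 3 to -0.85 without Vector library 3.

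ADAMTS1 (ENSG00000154734, chr21:26835747-26845409, minus strand, GRCh38 with GENCODE 29) cuts versican and aggrecan. It was at 2.15, 0 and 0 normalized reads in GOLPH3 libraries 1, 2 and 3, and at 3581, 3433 and 6977 in Vector libraries 1, 2 and 3. The groups did not come near each other: 2 reads in all stood against 14743. The ratio of summed reads, scaled for depth, was 7448 in favor of Vector, with a 95% counting interval from 2061 to 61502 (adjusted p = 5.07e-07, limma). The ratio of mean normalized reads was 6517. Within the libraries that share a P number, the log2 difference was -11.81 at P12 and -12.77 at P13. ADAMTS1 made up 69.4%, 80.5% and 74.4% of the summed normalized reads of the 19 ADAMTS genes in the 3 Vector-labelled libraries. Without it, the family sums overlapped, at 1564, 1829 and 2511 in the GOLPH3-labelled libraries and 1576, 829 and 2406 in the Vector-labelled ones.

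Of the other proteoglycan-cutting members, ADAMTS5 and ADAMTS9 were called lower and ADAMTS4, ADAMTS8, ADAMTS15 and ADAMTS20 were not called. ADAMTS5, an aggrecan-degrading enzyme of cartilage whose gene lies 72.5 kb from ADAMTS1 on the same strand of chromosome 21, had no read in any GOLPH3-labelled library and 12.4, 5.48 and 7.72 normalized reads in the Vector-labelled ones. Its mean was at least 2.64-fold lower (adjusted p = 0.00988). ADAMTS9, which cuts versican and aggrecan and has a role in the formation of cilia, had no read in the GOLPH3-labelled libraries against 28.8, 10.96 and 67.8. It was at least 11.1-fold lower (adjusted p = 0.00127), and Vector library 3 was the highest, as for ADAMTS1. ADAMTS8 was at 0, 1.65 and 2.13 against 16.5, 4.38 and 28.3, without overlap (adjusted p = 0.0665). ADAMTS20 was at 0, 11.5 and 0 against 18.5, 21.9 and 31.8 (adjusted p = 0.0569), and all 14 of its reads in the GOLPH3-labelled libraries came from library 2. Its log2 difference was accordingly -0.64 at P12 and -5.03 at P13. ADAMTS4, another aggrecan-cutting member, was at 2.15 to 4.27 against 4.12 to 14.6 (adjusted p = 0.505), and ADAMTS15, which lies 19.98 kb from ADAMTS8 on the opposite strand of chromosome 11, at 2.47 to 38.4 against 16.4 to 102 (adjusted p = 0.415).

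The 3 procollagen N-propeptidases, which trim the amino-terminal ends of fibrillar procollagens or, for ADAMTS3, also activate the lymphatic growth factor VEGF-C, differed in direction. ADAMTS3 (chr4:72280969-72569386, minus strand) had no read in the GOLPH3-labelled libraries and 115, 52.6 and 143 normalized reads in the Vector-labelled ones, and was at least 32.2-fold lower (adjusted p = 3.09e-05). ADAMTS14 (chr10:70672803-70762441, plus strand) was at 419, 618 and 802 against 172, 157 and 301. Its mean of 613 ± 192 (SD, n = 3) was 2.92-fold the Vector mean of 210 ± 79.4, with a log2 fold change of 1.55 (95% confidence interval 0.75 to 2.36, adjusted p = 0.0301). Its log2 difference was 1.84 at P12 and 1.41 at P13. The ADAMTS14 call was lost without GOLPH3 library 2 (adjusted p = 0.0801) or 3 (0.155) and without Vector library 1 (0.156) or 2 (0.0792), and with the filter on every library (0.0611). ADAMTS2 lay in the direction of ADAMTS3, at 97.7, 33.8 and 81.1 against 156, 118 and 365, without overlap (log2 fold change -1.54, 95% confidence interval -2.68 to -0.40, adjusted p = 0.133). Blocking by P number gave an adjusted p of 3.19e-08 (limma), but that fit rests on the P12 and P13 pairs and gives no firm support to single genes. ADAMTS14 was thus the only ADAMTS gene called higher.

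Among the remaining ADAMTS genes, ADAMTS12, which cuts the cartilage protein COMP, was at 0, 0 and 2.13 against 14.4, 9.86 and 20.6 normalized reads. The ratio of its summed reads, scaled for depth, was 23.7 in favor of Vector, with a counting interval from 6.22 to 202 (adjusted p = 0.0124). This call was lost without Vector library 1 (adjusted p = 0.0665) or 3 (0.0910) and with a pseudocount of 0.1 (0.0528). ADAMTS19, whose substrates are poorly known, had 1 read in the GOLPH3-labelled libraries and was at 26.8, 14.2 and 57.5 in the Vector-labelled ones (ratio of summed reads 107, counting interval 18.8 to 4269, adjusted p = 0.00138). ADAMTS18, at 0, 0 and 1.07 against 3.09, 4.38 and 7.72, was near the limit of the depth in both groups (adjusted p = 0.0917). ADAMTS16 was at 63.3, 219 and 61.9 against 60.7, 24.1 and 27.5. Its groups did not overlap only by a narrow margin, between GOLPH3 library 3 and Vector library 1 (log2 fold change 1.45, adjusted p = 0.210). ADAMTS7 was at 224 to 797 against 107 to 281 (log2 fold change 1.42, adjusted p = 0.137). The members left are ADAMTS13, which cuts von Willebrand factor, and ADAMTS6, ADAMTS10 and ADAMTS17. Their log2 fold changes lay between -1.05 and 0.42, with adjusted p from 0.362 to 0.909.

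**Figure D2:**
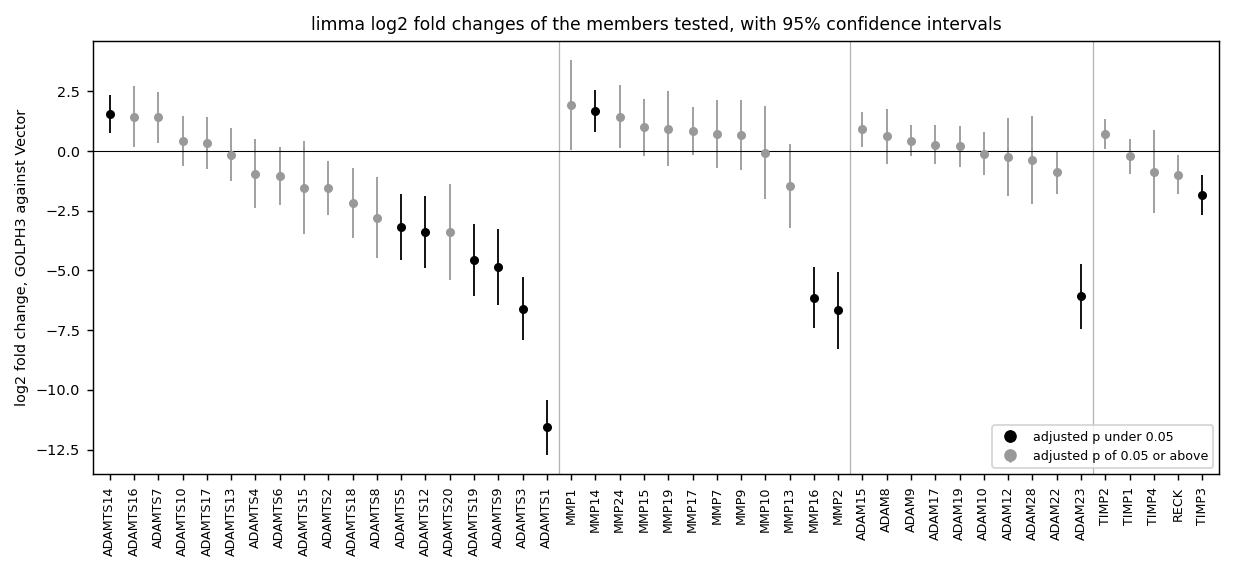
Log2 fold change of each of the 46 members tested (GOLPH3-labelled against Vector-labelled, on the log2(normalized reads + 1) scale) with its 95% confidence interval, grouped from left to right as ADAMTS, MMP, ADAM and inhibitors and ordered within each group. Black points have an adjusted p under 0.05 (12 members) and grey points do not. Fitted values of genes without reads in a group depend on the pseudocount and are no measure of the fold.

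Of the 12 MMPs tested, 1 was called higher and 2 lower. MMP2 (chr16:55389700-55506691, plus strand), the gelatinase that also cuts type IV collagen of basement membranes, was at 0, 2.47 and 0 normalized reads in the GOLPH3-labelled libraries and at 202, 61.3 and 292 in the Vector-labelled ones. The ratio of summed reads, scaled for depth, was 199 in favor of Vector, with a counting interval from 67.9 to 970 (adjusted p = 0.00012). Its log2 difference was -5.87 at P12 and -8.19 at P13. The other gelatinase, MMP9, was at or under 3 reads in all 6 libraries (1.07 to 2.47 against 0 to 1.72, adjusted p = 0.668). Gelatinase transcripts above 3 reads were thus seen only in the Vector-labelled libraries.

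Of the 5 membrane-type MMPs, MMP14 was called higher and MMP16 lower, and the other 3 were not called. MMP14 (MT1-MMP, chr14:22836557-22849027, plus strand), which cuts fibrillar collagen at the cell surface and activates pro-MMP2 together with TIMP2, was at 269, 231 and 563 against 81.3, 105 and 119 normalized reads. Its mean of 354 ± 181 (SD, n = 3) was 3.48-fold that of 102 ± 19.2 (log2 fold change 1.69, 95% confidence interval 0.81 to 2.57, adjusted p = 0.0302). The difference was 1.49 at P12 and 2.23 at P13 on the log2 scale. The call was lost without GOLPH3 library 3 (adjusted p = 0.167), without Vector library 1 (0.159) or 3 (0.0732) and with the filter on every library (0.0630). MMP16 (MT3-MMP, chromosome 8) had no read in any GOLPH3-labelled library and 60.7, 57.0 and 96.1 normalized reads in the Vector-labelled ones, at least 22.1-fold lower (adjusted p = 3.7e-05). MMP15 (MT2-MMP), the MMP with the highest mean, was at 1653, 483 and 2861 against 411, 719 and 989. The groups overlapped, with GOLPH3 library 2 below Vector libraries 2 and 3 (log2 fold change 0.99, 95% confidence interval -0.22 to 2.20, adjusted p = 0.397). MMP17 and MMP24, the other membrane-type members, were at 299 ± 145 against 170 ± 91.1 and 31.8 ± 15.6 against 10.4 ± 4.55, neither called (adjusted p = 0.378 and 0.237). The exons of MMP24 share 18.1% of their bases with MMP24OS, and strand use in the counting is not given in the sources used here.

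The collagenases, stromelysins and matrilysin clustered on chromosome 11 were scarcely read. MMP1, MMP3, MMP7, MMP10 and MMP13 together summed to 12.9 to 27.8 normalized reads in the GOLPH3-labelled libraries and to 6.01 to 25.7 in the Vector-labelled ones. MMP7, MMP1, MMP10 and MMP13 had adjusted p between 0.268 and 0.983. MMP1, the interstitial collagenase, was at 2.15, 8.25 and 10.7 against 5.15, 0 and 0. MMP3 with 1 read, MMP28 with 2 reads and MMP11 listed at 0 in all 6 libraries could not be tested. MMP19 was at 22.5 to 121 against 13.1 to 54.6 (adjusted p = 0.549), and its exons share 17.4% of their bases with TMEM198B.

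In the ADAM family 1 of 10 members was called, a share of 10.0% beside 36.8% of the ADAMTS genes, 25.0% of the MMPs tested and 1 of the 5 inhibitors. The sheddases ADAM9, ADAM10 and ADAM17, together with ADAM15 and ADAM19, summed to 11931 to 13522 normalized reads in the GOLPH3-labelled libraries and to 8743 to 10912 in the Vector-labelled ones. ADAM9, the most abundant by normalized reads over all 6 libraries (ADAM15 had the higher mean in the GOLPH3-labelled ones), was at 3772, 4205 and 2495 against 2804, 2823 and 2034 (log2 fold change 0.43, adjusted p = 0.503). ADAM10, the main constitutive sheddase of Notch receptors and E-cadherin, had means of 2315 ± 1316 and 2417 ± 1115 (log2 fold change -0.11, 95% confidence interval -1.01 to 0.79). ADAM17, the TNF-alpha converting enzyme, had means of 1553 ± 705 and 1259 ± 423 (log2 fold change 0.27, 95% confidence interval -0.54 to 1.08). These intervals include changes of about 1 log2 unit in one direction, so that equality was not shown. ADAM15 was at 2673 to 4544 against 1230 to 2649, without overlap but not called (log2 fold change 0.91, adjusted p = 0.177). With the P number as a block the adjusted p was 0.000646 (limma), in a fit that gives no firm support to single genes.

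ADAM23, a member without protease activity that acts as a neuronal adhesion protein, was the exception. It lies at chr2:206443539-206621130 on the plus strand and was at 2.15, 1.65 and 0 normalized reads in the GOLPH3-labelled libraries, against 101, 111 and 225. The ratio of summed reads, 4 in all against 461 and scaled for depth, was 116 in favor of Vector, with a counting interval from 45.2 to 429 (adjusted p = 7.22e-05). The log2 difference was -5.27 at P12 and -7.82 at P13. ADAM22, the related catalytically inactive member, was at 123 to 365 against 295 to 436 (log2 fold change -0.88, adjusted p = 0.294). ADAM8, ADAM12, ADAM19 and ADAM28 had log2 fold changes between -0.38 and 0.61, with adjusted p from 0.609 to 0.901. ADAM12 and ADAM28 had at most 10.7 normalized reads in any library.

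**Figure D3:**
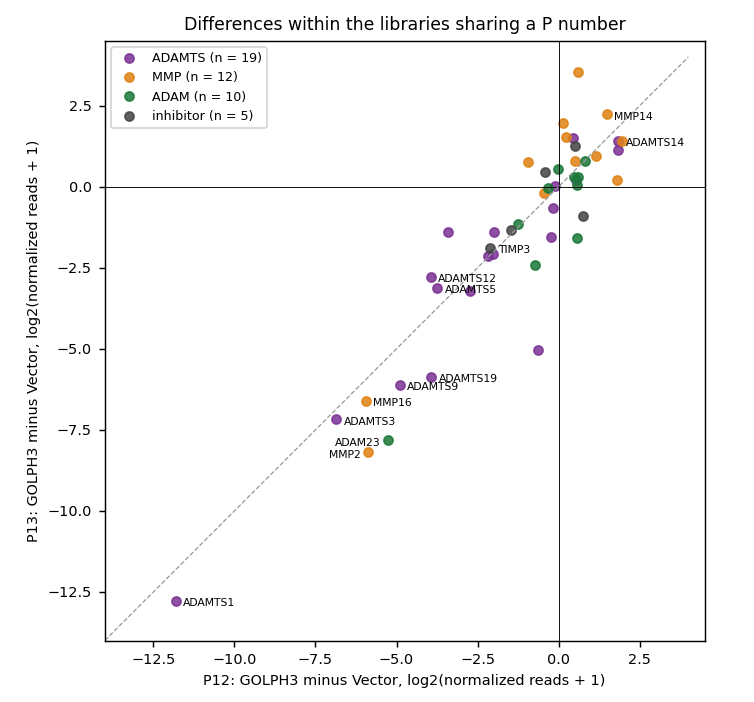
Difference between GOLPH3-labelled and Vector-labelled libraries on the log2(normalized reads + 1) scale within the pair marked P12 (horizontal axis) and the pair marked P13 (vertical axis), with 1 point per member tested and a dashed line of equal values. The 12 members called by limma are named. Their groups did not overlap, so any pair of libraries must give the same sign, and the pairs are no separate test. Their differences run from -11.81 and -12.77 for ADAMTS1 to 1.49 and 2.23 for MMP14. GOLPH3 library 1 (P8) and Vector library 2 (P11) have no partner and are not shown.

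Of the 5 inhibitors, TIMP3 was called lower. With limma 0 were called higher (1 at an unadjusted p under 0.05, and 0 with edgeR or DESeq2). TIMP3 (chr22:32801701-32863043, plus strand), which binds to the matrix and inhibits ADAMTS enzymes and ADAM17 as well as MMPs, was at 96.6, 99.0 and 165 normalized reads against 429, 284 and 618. Its mean of 120 ± 39.1 (SD, n = 3) was 0.271 of the Vector mean of 444 ± 168 (log2 fold change -1.85, standard error 0.39, adjusted p = 0.0146). The groups did not overlap, and the difference was -2.11 at P12 and -1.89 at P13. Without Vector library 1 or 3 the adjusted p was 0.0857 or 0.0942. RECK was at 167, 86.6 and 93.9 against 243, 188 and 240, also without overlap but not called (95% confidence interval of the log2 fold change -1.81 to -0.18, adjusted p = 0.180). TIMP2, needed on the cell surface for the activation of pro-MMP2 by MMP14, lay the other way, at 2914, 2367 and 3519 against 1677, 2169 and 1486 (log2 fold change 0.72, 95% confidence interval 0.10 to 1.34, adjusted p = 0.205, or 0.000276 when blocked by P number). TIMP1 was at 1041, 1738 and 2429 against 2335, 1652 and 1781, and the groups overlapped (log2 fold change -0.21, adjusted p = 0.795). The sign of the TIMP1 value turned without GOLPH3 library 1. TIMP4 was near the limit of the depth, at 0, 4.12 and 0 against 2.06, 4.38 and 0.858 (adjusted p = 0.636).

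Levels of different genes were compared per kilobase of exon. TIMP1 had the highest level in both groups, at 1127 ± 450 normalized reads per kilobase in the GOLPH3-labelled libraries and 1248 ± 236 in the Vector-labelled ones (SD, n = 3). Next in the GOLPH3-labelled libraries came ADAM15 (539 ± 143), TIMP2 (521 ± 102), ADAM9 (505 ± 129) and MMP15 (377 ± 269), neighbors that differed by less than their spread. In the Vector-labelled libraries ADAMTS1 stood second of the 49 genes at 660 ± 284, followed by ADAM9 (369 ± 65.1), TIMP2 (316 ± 62.5) and ADAM15 (294 ± 108). In the GOLPH3-labelled libraries ADAMTS1 was at position 40. Summed per kilobase, the inhibitors were at 1242, 1586 and 2252 against 1948, 1553 and 1594, and the ADAMs at 1612, 1572 and 1569 against 1131, 1249 and 1161. The MMP sums were 502, 262 and 921 against 221, 238 and 395. The ADAMTS sums were 244, 304 and 401 against 750, 612 and 1357.

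**Figure D4:**
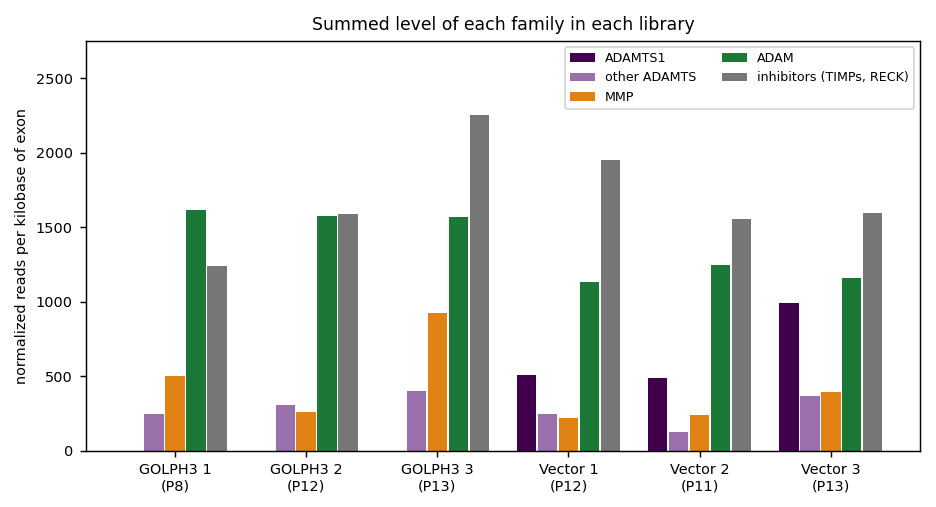
Summed normalized reads per kilobase of exon (vertical axis, from 0) in each of the 6 libraries, as bars for ADAMTS1, the other 18 ADAMTS genes, the 15 MMPs, the 10 ADAMs and the 5 inhibitors. The bar of ADAMTS1 is visible only in the Vector-labelled libraries, while the ADAM bars lie between 1131 and 1612 in all 6.

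Groups that did not overlap were seen for 20 of the 46 members tested, 5 higher and 15 lower, against 22.0% of all genes tested (9.20% higher and 12.8% lower). For ADAMTS3, ADAMTS5, ADAMTS9, ADAMTS19 and MMP16 the filter fixed this, as only Vector-labelled libraries brought them to 1 normalized read. Silent here means at most 3 reads in each library, and 12 members had at most 3 reads in every GOLPH3-labelled library, a share of 26.1% against 14.1% of all genes tested. These 12 include the 5 genes that passed the filter in this way. At most 3 reads in every Vector-labelled library was seen for 1 member, MMP9, against 12.7%. MMP9 had at most 3 reads in every library of both groups, so it is counted on both sides and shows no contrast. Of the 12 silent in the GOLPH3-labelled libraries, 5 had at least 50 normalized reads in every Vector-labelled library, namely ADAMTS1, ADAMTS3, MMP2, MMP16 and ADAM23. They lie on different chromosomes. In bulk RNA, fewer cells that express a gene and less of its RNA per cell cannot be told apart.

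Genes that work with these proteases were read from lists chosen by function. Of 13 activators and partners, 2 were called higher: TSPAN14, a tetraspanin that accompanies ADAM10, at 3350, 2407 and 3803 against 1078, 1339 and 1343 normalized reads (log2 fold change 1.33, adjusted p = 0.0165), and RHBDF2, the iRhom2 that carries ADAM17 to the cell surface, at 1515, 1252 and 1543 against 605, 577 and 779 (1.14, adjusted p = 0.034). Neither pair of groups overlapped, while ADAM10 and ADAM17 themselves were not called. Neither of the partners was called without GOLPH3 library 3 or without Vector library 1 or 3. Of 9 other inhibitors and clearance factors, SPOCK1, a secreted proteoglycan of the testican family, was called lower, at 20.4, 16.5 and 12.8 against 124, 92.0 and 110.7 (log2 fold change -2.66, adjusted p = 0.00292). PCOLCE2, which enhances procollagen C-proteinase activity, was at 138 ± 38.4 against 294 ± 74.9 (adjusted p = 0.123).

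Of 10 ADAMTS substrates tested, 2 were called lower. COMP, the cartilage oligomeric matrix protein cut by ADAMTS12, had 1 read in the GOLPH3-labelled libraries and was at 13.4, 12.1 and 26.6 normalized reads in the Vector-labelled ones (adjusted p = 0.00411). ACAN, which encodes aggrecan, was at 2.15, 0 and 3.20 against 11.3, 14.2 and 25.7 (adjusted p = 0.0388). Both were low in either group. Without Vector library 3, 1 of the 3 lower calls in the related lists was left. Of the other lists, limma, edgeR and DESeq2 called 0 among 4 further ADAM genes (the smallest p for ADAM21, adjusted p = 0.656, and ADAM20, 0.811), 5 further MMPs (MMP23B, 0.330, and MMP25, 0.369), 5 ADAMTS-like proteins without a protease domain (ADAMTSL3, 0.0756, and ADAMTSL5, 0.129) and 5 astacins (BMP1, 0.131, and ASTL, 0.421). At an unadjusted p under 0.05, limma had 0, 0, 3 and 1 in these lists. BMP1, the procollagen C-proteinase, was at 1386 ± 404 against 700 ± 175 without overlap, and ADAMTSL3 at 0.989 ± 0.142 against 11.04 ± 9.03.

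Marker lists of other cells were read beside these results. In a list of 8 genes known for HEK293, a human embryonic kidney line, 5 of 7 tested were called lower in the GOLPH3-labelled libraries (IRS4, NEFL, NEFM, UCHL1 and CDH2). The list summed to 115 to 136 normalized reads there, nearly all of it from PAX2, and to 2674 to 8830 in the Vector-labelled libraries. IRS4, NEFM and UCHL1 had no read in any GOLPH3-labelled library. The sum was 4127, 2674 and 8830 in Vector libraries 1, 2 and 3, and 8 of the 10 members called lower followed the same order of Vector libraries, all but ADAMTS5 and ADAM23. Of all 1093 genes called lower, 61.9% followed that order. PAX2 was similar in both groups, at 126 ± 11.7 and 113 ± 30.6. The part of these genes' source in the protease differences was not tested.

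The sum of 11 colon epithelial markers was 62846 to 134416 normalized reads in the GOLPH3-labelled libraries and 30019 to 41155 in the Vector-labelled ones, mostly from KRT8, KRT18 and KRT19. KRT18 and KRT19 were called higher among 9 tested, and VIL1, CEACAM5 and LGALS4 were at 10.3 or less in every library. Of the 9, 8 had a positive log2 fold change and only CDX2 a negative one, at 289 ± 60.2 against 499 ± 364 (-0.52, adjusted p = 0.636, limma). Fibroblast markers summed to 825 to 1517 against 488 to 811, mostly from COL1A1. PDGFRA was called lower among 6 tested, and DCN was listed at 0 in all 6 libraries. Endothelial markers, at 27.2 to 48.3 against 29.6 to 46.3, had 0 called among 6 tested with limma, edgeR or DESeq2, and 0 at an unadjusted p under 0.05. The leukocyte marker PTPRC had 1 read in all 6 libraries together.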

How the data were processed

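RNA of HCT-116 cells was sequenced in 3 PMSCV-GOLPH3 and 3 PMSCV-Vector samples. The signal deposited by the authors is a value per gene and library, in which 99.98% to 100.00% of nonzero values were within 0.01 of whole multiples of 1 step per library, so that it holds read counts divided by a size factor, without correction for gene length. The submitters' processing notes name fastp 0.20.0, HISAT2 2.1.0, featureCounts 1.6.1, Cufflinks, DESeq2 and GRCh38. The annotation and strand setting are not given in the sources used here. The table had 60590 rows, and where an identifier occurred again (44 rows) the rows were summed. Members were found by symbol, and coordinates and exon lengths came from GENCODE 29.

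limma 3.58.1 (R 4.3.3, mean-dependent prior variance) was fitted to log2(value + 1) of all genes that reached 1 in 3 or more libraries, two-sided, with Benjamini-Hochberg adjustment over the 26536 genes. P-values measure the spread between these libraries, which may be technical. Within groups, the chi-square per degree of freedom between libraries was at least 65.3, more than counting error gives, and each library was treated as a sample. This does not show that the libraries are independent, as the study describes them as generations of the lines. Ratios of summed reads divide the reads of each group by its summed size factors, so they differ from ratios of mean normalized reads. They have exact conditional binomial intervals (95%), and "at least" folds set the GOLPH3 level at 3 reads per library. Both cover counting error only.

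Values are given per library for GOLPH3, members called, members with an absolute log2 fold change over 1 without overlap, the most abundant member of each protease family and the inhibitors. In each related list the 2 genes with the smallest p are named. A few other values, such as those of ADAMTS7 and MMP1, were added after they had been seen. The members and all lists were chosen with earlier results of these data known. The alternatives were quantile normalization, 2 other filters, a pseudocount of 0.1, edgeR 4.0.16 and DESeq2 1.42.0 on recovered reads, the replicate number or the P number as a block, each library left out, and an unadjusted call rule. Leaving out Vector libraries with a filter of 2 libraries was added after the data were seen. The summed leukocyte marker list is not reported here. Scripts were tested on simulated data.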

Additional observations from a re-analysis of the deposited data

How the results depend on the processing

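ADAMTS1, MMP2 and ADAM23 kept an adjusted p under 0.05 in all 13 alternatives set at the start in which they were fitted. ADAMTS3, ADAMTS5, ADAMTS9, ADAMTS19 and MMP16 dropped out of the fits without a Vector library and with the filter on every library, so those alternatives did not test them. In the added fits under the filter of 2 libraries their largest adjusted p was 0.0216, apart from ADAMTS5. For ADAMTS5 it was 0.0549 without Vector library 1 and 0.0475 without 3. The replicate numbers did not pair the samples (correlations of same-numbered libraries -0.23, -0.15 and 0.26). The libraries sharing P12 or P13 had correlations of 0.256 and 0.259, from 2 pairs only, and the P13 pair is also the same-numbered pair at 0.26. GOLPH3 library 1 and Vector library 2, which share neither number, had the highest correlation between the groups, 0.331. With the replicate block, 3 members were higher and 10 lower, ADAMTS7 had an adjusted p of 0.0421, and 1 gene of the related lists was called higher, where 2 had been. Of all genes, 178 were higher and 903 lower under this block. With the P number as a block, which rests on the pairs marked P12 and P13, 8 members were called higher and 17 lower (the 12 of the main test and, among others, ADAMTS2, ADAMTS8, ADAM15, ADAM22, MMP15, TIMP2 and RECK), 2636 and 3446 of all genes, and 15 and 10 genes of the related lists, and the family medians were -2.17 for ADAMTS and -0.075 for inhibitors. The fit blocked by P number has few degrees of freedom and gives no firm support to single genes. The sign of TIMP1 turned, to 0.011 with this block, and it ranged from -0.50 to 0.11 with each library left out, being 0.11 without GOLPH3 library 1. With a value of at least 1 required in every library, 0 members were higher and 1 lower at an adjusted p under 0.05 (limma), and 7 and 3 at an unadjusted p under 0.05. The same filter gave 123 and 282 of all genes and 1 and 1 of the related genes, and the ADAMTS median became 0.10. At an unadjusted p under 0.05 with a log2 change over 1, 6 members were higher and 14 lower, against 14.2% of all genes (1574 higher and 2202 lower). A pseudocount of 0.1 gave 159 genes higher. DESeq2 called 603 genes higher and 1388 lower, and 3 and 12 members, where limma had 253 and 1093, and 2 and 10. edgeR called 2 and 8 members. With each library left out in turn, members called ranged from 0 to 3 higher and 3 to 11 lower, all genes from 56 to 404 higher and 346 to 1124 lower, related genes from 0 to 2 higher and 1 to 3 lower, and the ADAMTS median from -2.27 to -0.85. The count of 0 higher arose without GOLPH3 library 3 or Vector library 1, where 3 and 6 members were higher at an unadjusted p under 0.05. In the added fits without Vector library 1, 2 or 3 under the filter of 2 libraries, 0, 0 and 1 members were higher, 99, 114 and 83 of all genes were higher, 0, 1 and 0 related genes were higher, and 634 of all genes were lower without library 3. The causes of these shifts were not tested, apart from the filters, which remove silent genes by construction. MMP3, MMP9, MMP11 and MMP28 had at most 3 reads in every library, where this depth shows no difference.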
